A study of Homo sapiens with 3 samples.

Results

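The AP-1 transcription factors examined here were the FOS family (FOS, FOSB, FOSL1, FOSL2), the JUN family (JUN, JUNB, JUND), BATF, BATF3, and MAFF. They were chosen by gene symbol among the transcript probes of the array, which gave 10 of the 43317 gene names and 10 of the 58201 probes, 1 probe for each gene. RNA of THP-1 macrophages had been hybridized to 3 one-color arrays that shared 1 slide. THP-1 is a human leukemia cell line of monocytic origin, and all 3 cultures had been turned into macrophage-like cells with the phorbol ester PMA at 100 ng/mL for 24 to 36 h and then left overnight in fresh medium. The Ctrl array held RNA of macrophages given nothing further. The IMQ array held RNA of macrophages stimulated by imiquimod (IMQ), which binds toll-like receptor 7. The IMQ+DMD array held RNA of macrophages given DMD, a small phenolic compound of the mushroom Antrodia cinnamomea, before IMQ. The second agent appears as X in the label of that array and was taken to be DMD, since the series title and treatment protocol mention no further compound. The labels give 4 h for each array and no dose, whereas the general methods of the study give 1 h of DMD before 24 h of IMQ, each agent at 10 μg/mL. Each condition was 1 array of 1 cell line, so no spread between cultures was measured and no p-value is given. A response of the AP-1 genes to PMA, which acts on protein kinase C and is a classical inducer of AP-1, would have been shared by all 3 arrays.

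AP-1 is a dimer of basic leucine zipper (bZIP) proteins that binds a short palindrome in promoters and enhancers. FOS proteins cannot pair with themselves and need a JUN partner, whereas JUN proteins also pair with each other. In macrophages, toll-like receptors reach AP-1 through the MAP kinases, which raise transcription of FOS and JUN genes and phosphorylate the proteins, and AP-1 then acts with NF-κB on cytokine and protease genes. BATF proteins take the place of FOS in dimers with JUN, and small MAF proteins such as MAFF lack an activation domain and pair with each other, with FOS proteins, or with NFE2-related factors.

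The sequence that AP-1 binds best is TGACTCA (the PMA response element, read as TGAGTCA on the other strand), and dimers that hold ATF2 or CREB prefer TGACGTCA (the cAMP response element). Both were searched on both strands in the 250 bases before to 50 bases after each transcription start in RefSeq's promoters of GRCh38.p14, where 8 of the 10 genes had 9 starts. FOSL1 and BATF3 had no entry. The promoter stretches with a match are shown because AP-1 proteins are known to bind promoters of their own family. Capitals mark the matches. The MAFF stretch is chr22:38201894-38201993 on the plus strand, the JUN stretch chr1:58784048-58784147 and the JUND stretch chr19:18281773-18281872 on the minus strand, and the FOSL2 stretch, which runs over the start, chr2:28392851-28392880 on the plus strand.
MAFF: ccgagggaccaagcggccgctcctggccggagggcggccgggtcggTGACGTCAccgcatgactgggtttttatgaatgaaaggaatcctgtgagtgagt
JUN: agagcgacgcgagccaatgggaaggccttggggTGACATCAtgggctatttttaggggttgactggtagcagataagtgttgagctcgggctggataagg
JUND: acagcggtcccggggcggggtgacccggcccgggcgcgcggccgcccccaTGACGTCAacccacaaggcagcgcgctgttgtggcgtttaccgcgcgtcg
FOSL2: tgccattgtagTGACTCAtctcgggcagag

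FOSL2 held TGACTCA at bases 5 to 11 after its start, a sequence found in 4.95% of all 35116 promoters. MAFF held TGACGTCA at -54 to -47 and JUND at -200 to -193, a sequence found in 1.85% of promoters. JUN held the related TGACATCA at -67 to -60. The looser TGACNTCA, which takes in TGACGTCA and was added after the promoters had been seen, stood in 7.72% of all promoters and in those of JUN, JUND, and MAFF. The CArG box, the site of serum response factor, was in none of the 9 windows and in 1.29% of all. The NF-κB type sequence (GGG and CC with 5 bases of any kind between them) was in the promoters of 6 of the 8 genes (FOS, FOSB, JUN, JUND, BATF, and MAFF) and in 58.7% of all promoters. A match describes letters in this window and is no evidence of binding. Bases outside the window were not searched, so a missing match does not mean that a gene lacks the site.

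The array read each gene with 1 probe of 60 bases in 1 spot. The probes of JUNB and JUND are shown as examples of what was hybridized, in hg19 at chr19:12902998-12903057 on the plus strand and chr19:18391371-18391430 on the minus strand.
JUNB: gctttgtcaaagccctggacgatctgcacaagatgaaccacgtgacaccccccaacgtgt
JUND: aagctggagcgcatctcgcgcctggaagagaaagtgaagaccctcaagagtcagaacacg

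Each of the 10 probes was well above background on every array, and none of their 30 spots was saturated or marked as an outlier (0 of each). The local background of 2 of the spots was marked as uneven, that of FOS on the IMQ array and that of JUND on the IMQ+DMD array. Over all probes, the share well above background was 72.0% for Ctrl, 66.6% for IMQ, and 71.9% for IMQ+DMD. Of the 8 monocyte and macrophage markers on the array, 7 were well above background on all 3 arrays (CSF1R, CD14, SPI1, ITGAM, CD163, MSR1, and MRC1). The summed level of the list, 297280 on Ctrl, 226250 on IMQ, and 203990 on IMQ+DMD, was mostly CSF1R (224900, 172910, and 153690). CD14 was likewise highest on Ctrl (21875, 13399, and 9436), whereas SPI1 was lowest there (18093, 18655, and 19406). T cell markers were well above background in 5 of 5, B cell markers in 3 of 3, neutrophil precursor markers in 4 of 4, keratinocyte markers in 2 of 3, and fibroblast markers in 2 of 3 (COL3A1 on no array). Low levels passed this mark too, such as CD3G at 23.6 on Ctrl. The summed Ctrl level of the T cell list, 12645, was mostly CD4 (11684), and that of the keratinocyte list, 18839, mostly KRT10 (18750). The part of these marker levels in the values below was not tested.

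Most of the AP-1 genes were higher with IMQ. Between the IMQ and Ctrl arrays, 6 of the 10 were at least 2-fold higher (FOSL2, MAFF, JUNB, FOSB, FOS, and JUND), beside 4.17% of the 31849 genes compared, and 1 of the 10, BATF, was at least 2-fold lower, beside 3.59%. The median log2 difference of the 10 was 1.13, and that of all genes was -0.02. Without normalization between the arrays and with scaling to spike-in controls, which moved the median of all genes to -0.51 and -0.37, FOS (0.86 and 0.998), FOSB (0.77 and 0.91), and JUND (0.63 and 0.77) stayed under 2-fold. In RNA of a whole culture, fewer cells that express a gene and less RNA of it per cell cannot be told apart. The noise given after each log2 difference is the SD of repeated spots within an array at that brightness, combined over both arrays, and leaves out the variation between cultures.

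**Figure D1:**
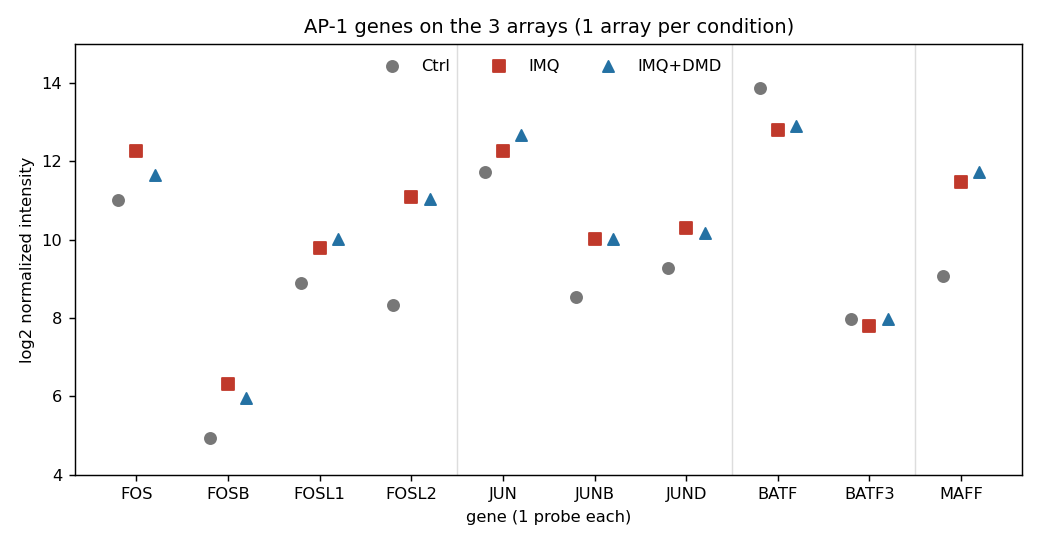
Log2 normalized intensity (vertical axis) of the 10 AP-1 genes (horizontal axis, 1 probe each) on the Ctrl (circles), IMQ (squares), and IMQ+DMD (triangles) arrays, 1 array per condition with no error bar. The IMQ and IMQ+DMD points lie together and above Ctrl for FOSL2, JUNB, and MAFF, BATF lies below Ctrl on both, and FOS on IMQ+DMD lies between its other values.

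FOSL2 (FRA2, a FOS protein without the strong activation domain of FOS itself; probe at chr2:28637175-28637234, plus strand, hg19) had a normalized intensity of 321 on Ctrl, 2176 on IMQ, and 2110 on IMQ+DMD. Both IMQ-treated arrays were thus high and close to each other. The IMQ value was 6.79-fold the Ctrl value (log2 difference 2.76 ± 0.08, spot noise SD), and 99.6% of all genes had a lower difference. IMQ+DMD differed from IMQ by -0.04 ± 0.07, and by -0.16 without normalization, -0.18 with scaling to the 75th percentile, and -0.22 with spike-in scaling.

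FOS (c-Fos, the founding immediate-early gene of the family; probe at chr14:75748214-75748273, plus strand, hg19) read 2075 on Ctrl, 4888 on IMQ, and 3215 on IMQ+DMD. The IMQ+DMD value stood between the others, a pattern no other member showed at this size. IMQ against Ctrl was 2.36-fold (log2 difference 1.24 ± 0.07). IMQ+DMD was 1.52-fold below IMQ (log2 difference -0.60 ± 0.06), and 5.0% of all genes had a lower difference. The local background of the FOS spot on the IMQ array was 40 where the median of that array was 33, and without any background correction the difference between IMQ+DMD and IMQ was -0.57.

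FOSB, a close relative of FOS with an immediate-early response of its own (probe at chr19:45978205-45978264, plus strand, hg19), read 30.4 on Ctrl, 79.8 on IMQ, and 61.9 on IMQ+DMD. These values lay close to the background, and the spot noise was accordingly the largest among the members. IMQ was 2.62-fold above Ctrl (log2 difference 1.39 ± 0.36), and IMQ+DMD differed from IMQ by -0.37 ± 0.29. The mean pixel signals before background subtraction were 89.4, 108, and 108, over local backgrounds of 38, 35, and 35. The log2 difference between IMQ and Ctrl was accordingly 0.65 without background correction and 0.57 with the normexp correction, both under 2-fold.

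FOSL1 (FRA1, which like FOSL2 lacks the strong activation domain; probe at chr11:65660098-65660157, minus strand, hg19) read 479 on Ctrl, 880 on IMQ, and 1039 on IMQ+DMD. It was highest on the IMQ+DMD array. The IMQ value was 1.84-fold the Ctrl value (log2 difference 0.88 ± 0.08) and the IMQ+DMD value was higher again by 0.24 ± 0.07, so that it passed 2-fold only against Ctrl on the IMQ+DMD array (log2 difference 1.12), a call lost on arrays not normalized (0.66) or scaled to the spike-ins (0.74).

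In the FOS family, 3 of 4 genes were therefore at least 2-fold higher with IMQ, with a median log2 difference of 1.31. The members split in their quantile-normalized values with DMD. FOS was lower, as was FOSB within 2 spot noise SDs, FOSL2 was nearly level, and FOSL1 was higher.

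JUNB (a JUN protein that activates less strongly than JUN; probe position above) read 375 on Ctrl, 1032 on IMQ, and 1044 on IMQ+DMD. The treated arrays again lay together above Ctrl. IMQ was 2.75-fold above Ctrl (log2 difference 1.46 ± 0.08). IMQ+DMD against IMQ was 0.02 ± 0.07, a value whose sign turned under the 3 other scalings of the arrays.

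JUND (the member with the steadiest expression across cell types) read 622 on Ctrl, 1267 on IMQ, and 1149 on IMQ+DMD. It stood just inside the 2-fold limit at 2.03-fold (log2 difference 1.02 ± 0.08), and left it under both other background corrections, at 0.92 with normexp and 0.95 without correction. IMQ+DMD differed from IMQ by -0.14 ± 0.07.

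JUN (c-Jun, the main partner of FOS and a target of the JNK kinases; probe at chr1:59246511-59246570, minus strand, hg19) read 3415 on Ctrl, 4956 on IMQ, and 6531 on IMQ+DMD. The levels stood in steps, with the highest on IMQ+DMD. IMQ was 1.45-fold above Ctrl (log2 difference 0.54 ± 0.07), under the 2-fold limit. IMQ+DMD was above IMQ by 0.40 ± 0.06, the largest positive difference among the quantile-normalized members (BATF3 exceeded it under the 3 other scalings), with 87.3% of all genes below it, and stood 0.94 above Ctrl.

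The JUN family thus had 2 of 3 genes at least 2-fold higher with IMQ and a median log2 difference of 1.02. FOS and JUN, the classical pair, differed in direction with DMD, FOS being lower and JUN higher than with IMQ alone under each of the 6 other settings that could move the members.

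MAFF, a small MAF protein (probe at chr22:38611984-38612043, plus strand, hg19), read 541 on Ctrl, 2829 on IMQ, and 3414 on IMQ+DMD. Both treated arrays were far above Ctrl. IMQ was 5.23-fold above Ctrl (log2 difference 2.39 ± 0.07), higher than 99.4% of all genes, and IMQ+DMD was above IMQ by 0.27 ± 0.06. FOSL2 and MAFF were the members past 4-fold. The other small MAF genes, looked up after their values had been seen, differed less, with MAFK at 1.08 (812, 1720, and 1801 on Ctrl, IMQ, and IMQ+DMD) and MAFG at 0.34.

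BATF, which pairs with JUN proteins and IRF factors in lymphocytes and dendritic cells (probe at chr14:76013251-76013310, plus strand, hg19), was the only member at least 2-fold lower with IMQ. It read 14905 on Ctrl, 7107 on IMQ, and 7688 on IMQ+DMD. The Ctrl value stood apart from both treated arrays. IMQ was 2.10-fold below Ctrl (log2 difference -1.07 ± 0.07), with 3.05% of all genes lower. Under scaling to the 75th percentile BATF fell short of the 2-fold limit, at -0.95. IMQ+DMD differed from IMQ by 0.11 ± 0.06, and this sign turned under the 3 other scalings.

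BATF3, which dendritic cells of the cross-presenting type need (probe at chr1:212860028-212860087, minus strand, hg19), read 253 on Ctrl, 221 on IMQ, and 254 on IMQ+DMD. The quantile-normalized values lay within 2 spot noise SDs of each other, with IMQ against Ctrl at -0.20 ± 0.13 and IMQ+DMD against IMQ at 0.20 ± 0.13. Under the other scalings they lay further apart, with IMQ against Ctrl at -0.71 without normalization and -0.57 with spike-ins, and IMQ+DMD against IMQ at 0.35 without normalization and 0.33 with the 75th percentile.

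**Figure D2:**
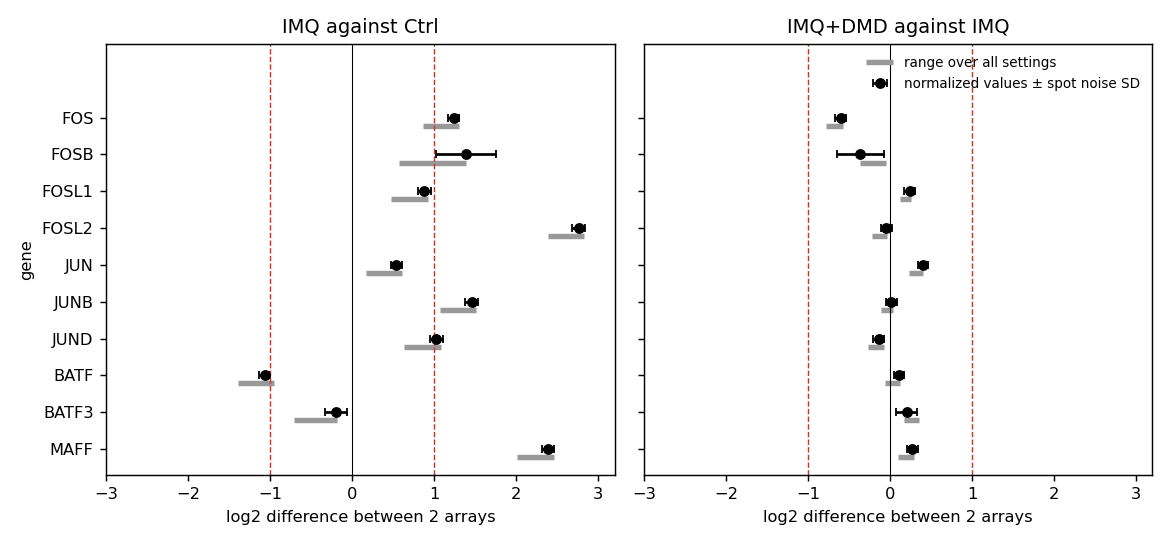
Log2 differences (horizontal axis) of the 10 AP-1 genes (vertical axis) for IMQ against Ctrl (left) and IMQ+DMD against IMQ (right). Points are the normalized values with error bars of 1 spot noise SD, gray bars give the range over all settings tried, and dashed lines mark 2-fold. On the left 6 points lie beyond the upper line and 1 beyond the lower, with FOSB having the widest bar, and on the right no point reaches a line.

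To see how the AP-1 genes differed when DMD was given before IMQ, IMQ+DMD was set against IMQ. No array held cells given DMD alone. A change in the response to IMQ and an effect of DMD by itself therefore cannot be told apart. None of the members was at least 2-fold higher or lower (0 of 10 each way), beside 1.19% higher and 1.25% lower among 31699 genes. At 1.5-fold, 0 of 10 were higher, beside 6.67%, and 1 of 10, FOS, was lower, beside 5.45%. The median of the 10 was 0.06 and that of all genes 0.00, with a range from -0.60 (FOS) to 0.40 (JUN). Beyond 2 spot noise SDs lay 4 members, FOS on the lower side and JUN, MAFF, and FOSL1 on the higher. Without normalization, and likewise with the 75th percentile, FOSL2 and JUND on the lower side and BATF3 on the higher joined these 4. With spike-in scaling the members beyond 2 SDs were FOS, FOSL2, JUND, JUN, and BATF3, and with the other background corrections BATF joined the 4. The share of all genes beyond 2 SDs was not computed, so these counts have nothing beside them. Of all genes, 78.6% had a lower difference than FOSL1, 80.8% than MAFF, 87.3% than JUN, and 5.0% than FOS.

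IMQ+DMD against Ctrl, which shares its arrays with the other comparisons, had 5 of 10 at least 2-fold higher (FOSL2, MAFF, JUNB, FOSL1, and FOSB), beside 3.04% of 33707 genes, and 0 of 10 at least 2-fold lower, beside 4.83%. FOSB lost its call under both other background corrections (0.41 with normexp, 0.47 without), which left 4 members, and both FOSB and FOSL1 lost theirs on arrays not normalized (0.72 and 0.66) or scaled to the spike-ins (0.80 and 0.74). FOS at 0.63, JUND at 0.88, and BATF at -0.96 were the members past 2-fold with IMQ that were not with IMQ+DMD. The log2 difference from Ctrl that remained with DMD, in percent of that with IMQ alone, was 51.1% for FOS, 73.7% for FOSB, 86.3% for JUND, 98.4% for FOSL2, 101% for JUNB, and 111% for MAFF. The FOS value depended on the scaling and was 15.4% on arrays not normalized, 21.2% after scaling to the spike-ins, and 42.6% after scaling to the 75th percentile. The median over these 6 was 92.3%. Over the 990 genes at least 2-fold higher with IMQ and well above background on all arrays it was 84.0%, and 16.5% of those genes had a lower value than FOS. Both sets were chosen by their rise on the IMQ array, which is also the divisor, so the choice itself can lower these percentages. JUN and FOSL1, higher with IMQ but under 2-fold and so left out, stood at 174% and 127%.

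**Figure D3:**
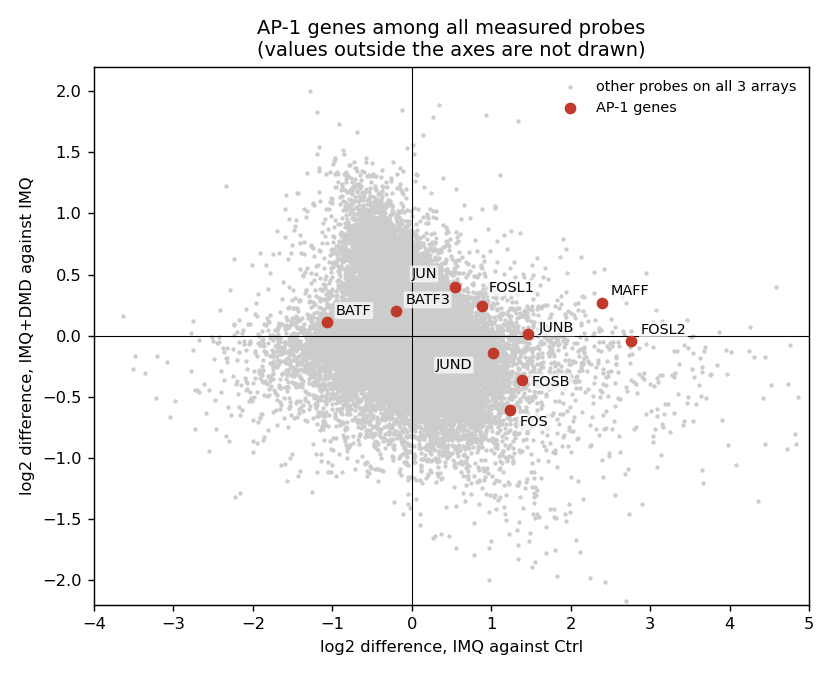
Log2 difference between IMQ and Ctrl (horizontal axis) and between IMQ+DMD and IMQ (vertical axis) for all probes well above background on the 3 arrays (gray) and the 10 AP-1 genes (red); both axes share the IMQ array. FOSL2 and MAFF lie far to the right near 0 on the vertical axis, FOS is the lowest of the red points at -0.60, and BATF is the leftmost at -1.07.

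By distance over both differences, the genes most like FOSL2 among 29337 well above background on all arrays were IFITM10 (distance 0.03 log2 units), lnc-MFSD9-4 (0.05), and C17orf96 (0.09). Those most like BATF were STMN1 (0.01), RNASEH2A (0.01), and BIRC5 (0.02). These rest on the 3 arrays alone. STMN1 and BIRC5 are known as genes of dividing cells, and RNASEH2A encodes the catalytic subunit of an RNase H.

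Lists of genes around AP-1 were set beside its members. Among other bZIP partners and relatives, 5 of 30 measured genes were at least 2-fold higher with IMQ, beside 4.17% of all genes. At least 2-fold lower was 1, beside 3.59%, and only this lower count was near the share of all genes. The median was 0.14, but -0.26 on arrays not normalized and -0.13 after scaling to the spike-ins. CEBPB, a driver of macrophage cytokine genes, differed by 3.04, with 6151 on Ctrl, 50440 on IMQ, and 51151 on IMQ+DMD. CREM, a cAMP-responsive factor, differed by 2.59 on one probe and 1.27 on the other. ATF3, a stress-induced partner of JUN, stood at 1.40 on the brightest of its 4 probes, while the others ran from -0.16 to 1.58. NFE2, a large partner of the small MAFs, had a log2 difference of -1.81, reading 160 on Ctrl, 45.5 on IMQ, and 47.1 on IMQ+DMD. With DMD, none of the 30 passed 2-fold against IMQ (0 each way), beside 1.19% higher and 1.25% lower among all genes, near the share of all genes.

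Among kinases that act on AP-1, 3 of 27 were at least 2-fold higher with IMQ, beside 4.17% of all genes, and 1 lower, beside 3.59%, the latter again near the share of all genes. The median was 0.06, but -0.32 on arrays not normalized and -0.18 after scaling to the spike-ins. MAP2K3, which activates p38, differed by 1.93, and its 3 probes ran from 1.57 to 1.93. MAP3K8, the kinase that links toll-like receptors to ERK, differed by 1.80 on one probe and 0.52 on the other. RPS6KA2, a ribosomal S6 kinase, stood at 1.20, with its 3 probes from 0.87 to 1.34. MAP2K6, another activator of p38, had a log2 difference of -1.10. None passed 2-fold with DMD against IMQ (0 of 27), beside 1.19% higher and 1.25% lower among all genes, again near that share. Of serum response factor and its partners, which drive FOS transcription, 0 of 7 passed 2-fold in either comparison, with medians of -0.34 and 0.10. The first ran from -0.15 (normexp correction) to -0.86 (spike-in scaling) and -1.0 (arrays not normalized). Of all genes, 4.17% were at least 2-fold higher and 3.59% lower with IMQ, and 1.19% and 1.25% with DMD against IMQ. MKL2 was counted on the brighter of its 2 probes (0.14 with DMD against IMQ), while its other probe passed 2-fold at 1.19.

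Genes known as AP-1 targets had the highest median of the lists, 1.29 with IMQ against Ctrl. At least 2-fold higher were 15 of 25, beside 4.17% of all genes, and 0 were lower, beside 3.59%. CXCL8, which encodes a neutrophil chemokine, differed by 6.16, IL1B by 4.45, TNF by 3.46, and VEGFA, an angiogenic factor, by 3.04 (2.49 on its other probe). With DMD, 17 of the 25 were lower than with IMQ and 8 higher, where 49.1% of all genes were lower and 50.8% higher, and the median was -0.18. At least 2-fold lower was 1 of the 25, PTGS2, the inducible cyclooxygenase, beside 1.25% of all genes, and 0 were higher, beside 1.19%. PTGS2 read 56.7 on Ctrl, 424 on IMQ, and 164 on IMQ+DMD (log2 difference -1.37). Many of these targets are read by NF-κB too, so the list does not measure AP-1 alone.

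**Figure D4:**
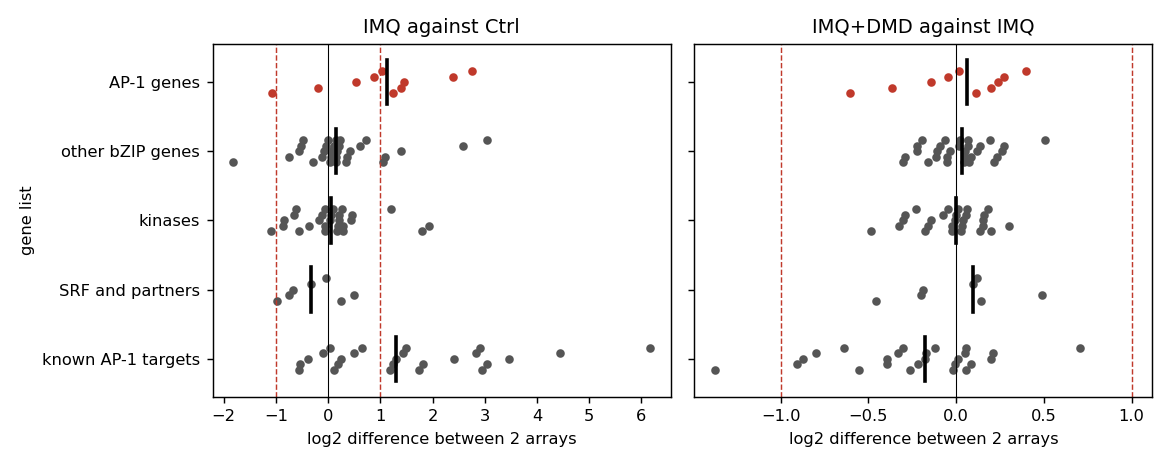
Log2 difference (horizontal axis) of each gene in the AP-1 set and 4 lists around it (vertical axis), for IMQ against Ctrl (left) and IMQ+DMD against IMQ (right); black bars are medians and dashed lines mark 2-fold. On the left the AP-1 genes (median 1.13) and known targets (1.29) lie to the right of the other lists, and on the right 1 target, PTGS2, lies beyond a line.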

How the data were processed

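RNA of 3 cultures was labeled with Cy3 and hybridized to 1 Agilent array each. The authors deposited the scanner output (Feature Extraction 10.5.1.1) and a table with a raw and a quantile-normalized intensity for every probe. The raw column equaled the scanner's background-corrected signal for the 57901 probes with 1 spot. The normalized intensity was used on the log2 scale (Python 3.11.15, numpy 2.4.6, pandas 2.3.3, matplotlib 3.10.9). Scanner values were renormalized for the alternatives with limma 3.58.1 in R 4.3.3.

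For genes with several probes, that with the largest mean on the log2 scale was taken. Where a spot was not well above background, its value was floored at the lowest value of the spots that were. A gene was compared where the brighter array was well above background and called at 2-fold. Spot noise came from the 300 probes with 10 spots, whose median SD over all was 0.05 log2 units on each array. Because each group was 1 array, no test was run, and precision is limited by the number of arrays. Scripts were tested on simulated data.

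The members and lists were chosen with earlier results of these data known. Named were all members, up to 4 genes of each list and comparison with the largest differences past 2-fold, and the 3 genes nearest to the members with the largest rise and fall. Alternatives were other background corrections, normalizations, probe choices, floors, and fold limits. Exon annotation of the hg19 probe positions was not used here. CD68 and LYZ were not analysed here.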

Additional observations from a re-analysis of the deposited data

How the results depend on the processing

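No paired analysis was possible because each condition was 1 array, and for the same reason no replicate could be left out. The probe choices, the floor, and the demand for signal on both arrays (4 of 10 settings) could not move the members, which had 1 probe each and signal on all arrays. Of 180 log2 differences under the other 6 settings, 170 kept their direction (60 of 60 for IMQ against Ctrl). The 10 exceptions were JUNB and BATF for IMQ+DMD against IMQ and BATF3 for IMQ+DMD against Ctrl, which was 0.00. BATF for IMQ+DMD against IMQ became -0.0080 without normalization, -0.031 with scaling to the 75th percentile, and -0.067 with scaling to spike-in controls. The median of the other bZIP genes with IMQ became -0.26 without normalization and -0.13 with spike-in scaling, and that of the kinases -0.32 and -0.18.

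Without normalization, and likewise with spike-in scaling, 4 members in place of 7 passed 2-fold with IMQ against Ctrl, 3 of them higher, and with IMQ+DMD against Ctrl 3 were higher and 1 lower. Of all genes without normalization, 1.76% were higher and 15.6% lower with IMQ, and 1.53% and 10.2% with IMQ+DMD. After spike-in scaling, 2.12% were higher and 10.6% lower with IMQ, and 1.77% and 8.55% with IMQ+DMD. The 1 lower member of 10 was thus near the share of all genes. With the 75th percentile 0 members were lower with IMQ, beside 4.58% of all genes. With normexp, and with no background correction, which was chosen after seeing the data, 5 members passed with IMQ against Ctrl, 4 of them higher, without FOSB and JUND, and 4 with IMQ+DMD against Ctrl, without FOSB. At 1.5-fold, 1 member (lower) passed for IMQ+DMD against IMQ, beside 5.45% of all genes. For IMQ+DMD against Ctrl 9 passed, 8 higher, beside 9.76%, and 1 lower, beside 11.5%, near the share of all genes. At 4-fold, 2 members, both higher, passed in each comparison with Ctrl, beside 0.907% of all genes with IMQ and 0.623% with IMQ+DMD. At this limit 0 were lower, beside 0.352% and 0.650%. The cause was not tested. Signal over background limits FOSB most.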
